A study of Mus musculus with 6 samples.

Results

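The transcription factors that take progenitors of the subventricular zone to olfactory bulb interneurons are described here in cells that lost the Rb gene family and in cells that kept part of it. The group holds 8 genes named from textbook roles, Gsx2, Dlx1, Dlx2, Dlx5, Dlx6, Sp8, Sp9 and Pax6, of the 55487 genes in the deposited table. All 8 were found by symbol, 1 row each, and all 8 were among the 17278 genes with enough signal to test. RNA was sequenced from 6 pools of sorted YFP-positive cells of the adult mouse subventricular zone, 3 of the genotype labelled THC, Rb(F/+);p107(+/-);p130(F/+), and 3 of the genotype labelled TKO, Rb(F/F);p107(-/-);p130(F/F). F marks a floxed allele, so the THC samples are themselves heterozygous after recombination and lack 1 copy of p107 in every cell. All mice carried NestinCreERT2, a tamoxifen-inducible recombinase driven by Nestin regulatory sequence, with a Cre-dependent EYFP at the Rosa26 locus, on a C57BL/6;Sv/129 background. They were 6 to 10 weeks old at the first of 5 daily gavages with 200 mg/kg tamoxifen, and the tissue was dissected once 10 days had passed from the final dose. Each sample pooled several mice to reach at least 200000 YFP-positive cells. Replicate 1 of each genotype belongs to the batch labelled February, and replicates 2 and 3 to the batch labelled November.

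The adult subventricular zone produces neuroblasts throughout life, which migrate along the rostral migratory stream and become mostly GABAergic interneurons of the olfactory bulb. Gsx2 acts in stem cells and early progenitors of the lateral wall, the Dlx homeodomain factors are switched on in transit-amplifying cells and kept in neuroblasts, and the zinc-finger factors Sp8 and Sp9 together with the paired-box factor Pax6 are used in neuroblasts and in subtypes of interneuron. The Rb family of pocket proteins (Rb, p107, p130) restrains E2F factors and thereby entry into the cell cycle.

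Values are normalized counts, read counts per gene divided by 1 scaling factor per sample by the authors. The libraries held 15536084 to 16961817 assigned reads each. Differences are TKO minus THC on the scale of log2(normalized count + 1), from limma with batch as a covariate, with the standard error (SE) and a p-value adjusted by Benjamini-Hochberg over the 17278 genes. A gene is called at an adjusted p under 0.05. By that rule 27.9% of all genes tested were called, 14.3% higher and 13.6% lower in TKO, so a call is common in this comparison. Of the targeted genes, Rbl1, which encodes p107, was at 497 to 646 in THC and 14.5 to 42.0 in TKO. Rb1 was at 1631 to 2022 in THC and 2877 to 3573 in TKO, and Rbl2, which encodes p130, was at 847 to 1250 and 912 to 976; the labels do not name the floxed exons, and reads from the rest of either gene do not check the deletion.

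Among the 8 factors, Dlx1 and Sp9 were lower in TKO and no factor was called higher. Dlx1 was 1.42-fold lower and Sp9 1.48-fold lower. Pax6 was 1.30-fold higher on average and its samples did not overlap between genotypes, with an adjusted p of 0.054 (limma). The count of 2 of 8 lower stands beside 13.6% of all genes lower, and 0 of 8 higher beside 14.3% higher. Without THC 3 no factor was called, and without TKO 2 the called factors were Dlx1, Dlx2 and Sp9. The median log2 difference over the 8 was -0.36, where the median over all genes tested was -0.00032 and the median absolute difference 0.36. Groups that did not overlap were found for 2 of 8 factors, Sp9 and Pax6, and for 38.9% of all genes. The authors' deposited table, with a different test and adjustment, calls 3 of the 8 (Dlx1, Sp9 and Pax6), beside 15.0% of all genes for which the authors' deposited table gives an adjusted p. That share is 4817 of 32018 genes, a wider set than the 17278 tested here, of which 4814 were called.

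**Figure D1:**
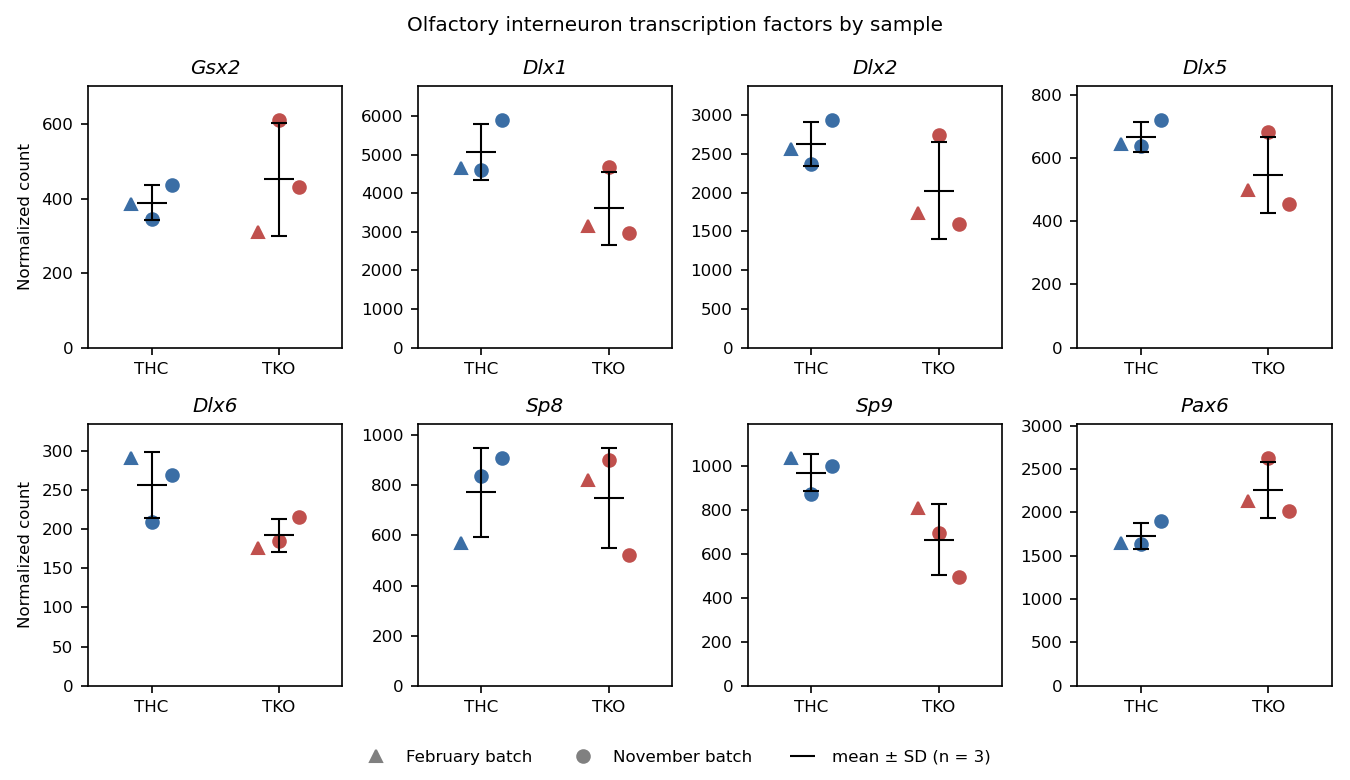
Normalized count of each factor (vertical axes, linear from 0) in the 3 THC and 3 TKO samples; triangles are the February and circles the November batch, and black bars show the mean ± SD of 3 samples. Sp9 and Pax6 are the factors with no overlap between genotypes, and TKO 2 lies above the other TKO samples for all factors but Dlx6 and Sp9.

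Per kilobase of annotated exon, the scale on which levels of different genes are compared here, Dlx1 and Dlx2 were the most abundant of the group in both genotypes. In THC, Dlx1 stood at 938 ± 135 and Dlx2 at 920 ± 100 normalized counts per kilobase (SD, n = 3), and these did not differ beyond their spread. Dlx5 followed at 295 ± 20.5, then Gsx2 at 234 ± 27.9, Sp9 at 193 ± 16.8, Sp8 at 170 ± 39.1, Pax6 at 148 ± 13.1 and Dlx6 at 108 ± 17.6. Within that order Gsx2 and Sp9, Sp9 and Sp8, and Sp8 and Pax6 were neighbours whose mean ± SD ranges overlapped. In TKO, Dlx2 stood at 710 ± 220 per kilobase and Dlx1 at 669 ± 174. Gsx2 came next at 271 ± 90.7, then Dlx5 at 241 ± 53.5, Pax6 at 193 ± 27.7, Sp8 at 164 ± 44.0 and Sp9 at 132 ± 31.7, each overlapping its neighbour. Dlx6 was lowest again at 80.8 ± 8.75 and lay apart from Sp9. The lengths are those of all annotated exons merged, 11694 bases for Pax6 and 1665 for Gsx2, so a gene with many alternative exons reads low on this scale.

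Gsx2 (chr5:75075601-75077893, GRCm38, plus strand) is the homeodomain factor of stem cells and early progenitors. It had 386, 346 and 438 normalized counts in THC 1, 2 and 3 and 311, 612 and 433 in TKO 1, 2 and 3. The genotypes overlapped, and TKO 2 was the highest sample of the 6. The difference was 0.16 (SE 0.20) with an adjusted p of 0.59 (limma) and a 95% interval of -0.27 to 0.60. It was -0.31 in the February pair and 0.40 over the November samples, so the direction was not shared by the batches. Without TKO 2 the difference was -0.045.

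Dlx1 (chr2:71528113-71533981, plus strand) and Dlx2 (chr2:71543408-71546754, minus strand) are neighbouring genes transcribed toward each other that share enhancers, and both are needed for interneurons to leave the progenitor zones and differentiate. Dlx1 had 4670.0, 4619 and 5901 normalized counts in THC and 3164, 4684 and 2975 in TKO, in replicate order. TKO 1 and TKO 3 were below all THC samples, while TKO 2 lay above THC 1 and THC 2. Dlx1 fell by 0.51 log2 units (SE 0.17, adjusted p 0.044, limma). The difference was -0.56 in February and -0.48 in November. The call did not hold without THC 1, THC 3, TKO 1 or TKO 3, with adjusted p of 0.14, 0.13, 0.14 and 0.19, and it held without THC 2 (0.033) or TKO 2 (0.010). It was also lost with no filter on low values (0.075) and without the batch term (0.075).

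Dlx2 had 2567, 2376 and 2938 normalized counts in THC and 1741, 2749 and 1595 in TKO. As for Dlx1, TKO 1 and TKO 3 were below all THC samples and TKO 2 lay among them. The log2 difference was -0.41 (SE 0.18) with an adjusted p of 0.12 (limma) and a 95% interval of -0.81 to -0.0099. Without TKO 2 it was -0.66 with an adjusted p of 0.010, past the threshold. The ratio of Dlx2 to Dlx1 stayed in a narrow range over all 6 samples, 0.550, 0.515 and 0.498 in THC and 0.550, 0.587 and 0.536 in TKO. The log2 ratio differed by 0.10 between genotypes, with p = 0.2 in a two-sided exact permutation test and 0.3 after adjustment over the 3 pairs tested. With 3 samples against 3, that test cannot give a p below 0.1.

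Dlx5 (chr6:6877805-6882085, minus strand) and Dlx6 (chr6:6863334-6868568, plus strand) form the second Dlx pair of this lineage and act downstream of Dlx1 and Dlx2. Dlx5 had 645, 637 and 721 normalized counts in THC and 501, 684 and 455 in TKO, again with TKO 2 inside the THC range. The log2 difference of Dlx5 was -0.31 (SE 0.17) with an adjusted p of 0.20 (limma). Dlx6 had 291, 210 and 269 in THC and 176, 185 and 215 in TKO. TKO 3 passed THC 2 by a few counts, and the remaining TKO samples were below every THC sample. The log2 difference of Dlx6 was -0.41 (SE 0.20) with an adjusted p of 0.16 (limma), and it was -0.72 in February and -0.25 in November. The ratio of Dlx6 to Dlx5 ranged from 0.330 to 0.452 in THC and from 0.272 to 0.475 in TKO. The log2 ratio differed by -0.10 (exact permutation p = 0.8, adjusted 0.8).

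All 4 Dlx genes had a negative difference in both batches, with 1 of them called. The per-sample patterns of Dlx1, Dlx2 and Dlx5 were close to each other. After each gene was centred on its mean, the root-mean-square difference over the 6 samples was 0.076 log2 units for Dlx1 and Dlx2, 0.093 for Dlx2 and Dlx5 and 0.12 for Dlx1 and Dlx5, the smallest of the 28 pairs of factors. Dlx6 was farther from them, at 0.27 from Dlx5, 0.30 from Dlx1 and 0.31 from Dlx2, while Dlx5 and Sp9 differed by 0.26. Gsx2 and Sp9 were the farthest apart at 0.54. The library TKO 2 was above its genotype mean for 7 of the 8 factors, TKO 3 was below for 7 of the 8, and THC 3 was above for all 8. What sets these libraries apart was not tested.

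Noncoding RNAs lie over both Dlx pairs, and the libraries carry no strand information, which leaves reads from shared bases unassigned between a gene and its antisense partner. Dlx1as, transcribed from the opposite strand, shares 335 bases with the exons of Dlx1, out of 5396 exon bases of Dlx1 and 1630 of Dlx1as. It had 171, 185 and 226 normalized counts in THC and 91.7, 150.5 and 126 in TKO and fell by 0.68 log2 units (SE 0.22, adjusted p 0.035, limma), with no overlap. Its call was lost when any sample but THC 2 was left out, with adjusted p from 0.051 to 0.14. Dlx6os1, known as Evf2 and as a regulator of Dlx5 and Dlx6, shares no exon base with either gene and was listed in 2 rows. The row with the higher level held 7776, 6894 and 10693 normalized counts in THC and 5299, 7243 and 5142 in TKO, a log2 difference of -0.51 (SE 0.18, adjusted p 0.058, limma). TKO 2 was again the TKO sample inside the THC range. Dlx6os2 shares 104 of its 1354 exon bases with Dlx6 and had 64.4 to 97.5 counts over the 6 samples, with a difference of -0.17 (adjusted p 0.68, limma). Paupar, upstream of Pax6 and sharing no exon base with it, stayed at 3.01 to 31.2 counts (difference 0.62, adjusted p 0.43, limma). Of the 4 RNAs, 1 was called lower and none higher.

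Sp8 (chr12:118846329-118852576, plus strand) and Sp9 (chr2:73271925-73284706, plus strand) encode close relatives of the Sp zinc-finger family that act together in olfactory interneurons. Sp9 was called and Sp8 was not. The bases just upstream of a RefSeq transcript start of each gene are shown because they hold the longest identical run shared there, 15 bases. Both are on the plus strand of GRCm38.p6, 5′ to 3′, chr12:118846983-118847232 for Sp8 and chr2:73271676-73271924 for Sp9, and capitals mark the shared stretch.
Sp8: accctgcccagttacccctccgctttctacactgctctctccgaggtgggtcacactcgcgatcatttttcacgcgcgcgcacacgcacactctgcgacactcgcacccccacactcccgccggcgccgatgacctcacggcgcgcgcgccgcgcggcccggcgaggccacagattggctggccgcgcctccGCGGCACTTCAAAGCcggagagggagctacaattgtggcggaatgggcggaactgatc
Sp9: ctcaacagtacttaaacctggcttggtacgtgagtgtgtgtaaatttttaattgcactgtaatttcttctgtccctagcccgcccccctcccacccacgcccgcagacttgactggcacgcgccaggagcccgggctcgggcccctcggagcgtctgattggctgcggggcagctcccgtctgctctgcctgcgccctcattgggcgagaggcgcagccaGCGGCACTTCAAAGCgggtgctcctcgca
The shared GCGGCACTTCAAAGC has 15 bases. It begins at position -58 from that Sp8 start and at -30 from the Sp9 start, and on the given strand it was found in the windows of no gene but these among 32851 RefSeq windows of 250 upstream bases. The Sp8 stretch lies between annotated exons of Sp8, upstream of the second of 3 start sites listed. The capitals hold TTCAAA, the reverse strand of TTTGAA, the letters of the cell cycle genes homology region, which 16.0% of all windows hold on either strand. A match in letters describes the sequence and is not evidence of binding.

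Sp8 had 571, 839 and 909 normalized counts in THC and 823, 903 and 522 in TKO. The lowest sample of each genotype was close to that of the other, and the groups overlapped throughout. The log2 difference was -0.06 (SE 0.22) with an adjusted p of 0.88 (limma) and a 95% interval of -0.53 to 0.42. The 2 batches differed in sign, with 0.53 in February and -0.35 in November. Leaving out THC 3 gave 0.06, and leaving out TKO 3 gave 0.25.

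Sp9 had 1037, 875 and 1001 normalized counts in THC and 811, 694 and 494 in TKO, so every TKO sample was below every THC sample. Sp9 fell by 0.57 log2 units (SE 0.16, adjusted p 0.018, limma). The difference was -0.35 in February and -0.67 in November. The call did not hold without THC 3 (difference -0.48, adjusted p 0.069) or without TKO 3 (-0.40, adjusted p 0.085). The ratio of Sp9 to Sp8 was 1.81, 1.04 and 1.10 in THC and 0.986, 0.769 and 0.946 in TKO, with no overlap. THC 1, with low Sp8 and high Sp9, gave the highest ratio. The log2 ratio was lower by a difference of -0.51, with an exact permutation p of 0.1, the smallest this design allows, and 0.3 after adjustment over the 3 pairs. Without THC 1 the difference was -0.26.

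Pax6 (chr2:105668900-105697364, plus strand) is expressed in stem cells and progenitors and again in neuroblasts fated to become dopaminergic periglomerular neurons. It had 1647, 1630.0 and 1903 normalized counts in THC and 2136, 2627 and 2015 in TKO, and the genotypes did not overlap. The log2 difference was 0.38 (SE 0.14) with a 95% interval of 0.087 to 0.68 and an adjusted p of 0.054 (limma). It had the same size in both batches, 0.38 in February and 0.39 in November. The adjusted p was 0.035 without TKO 3, 0.051 without THC 3, 0.14 without THC 1 or TKO 1, 0.17 without THC 2 and 0.24 without TKO 2. It was 0.099 with no filter, 0.079 without the batch term and 0.048 with a filter of 50. The authors' deposited table gives 0.046.

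**Figure D2:**
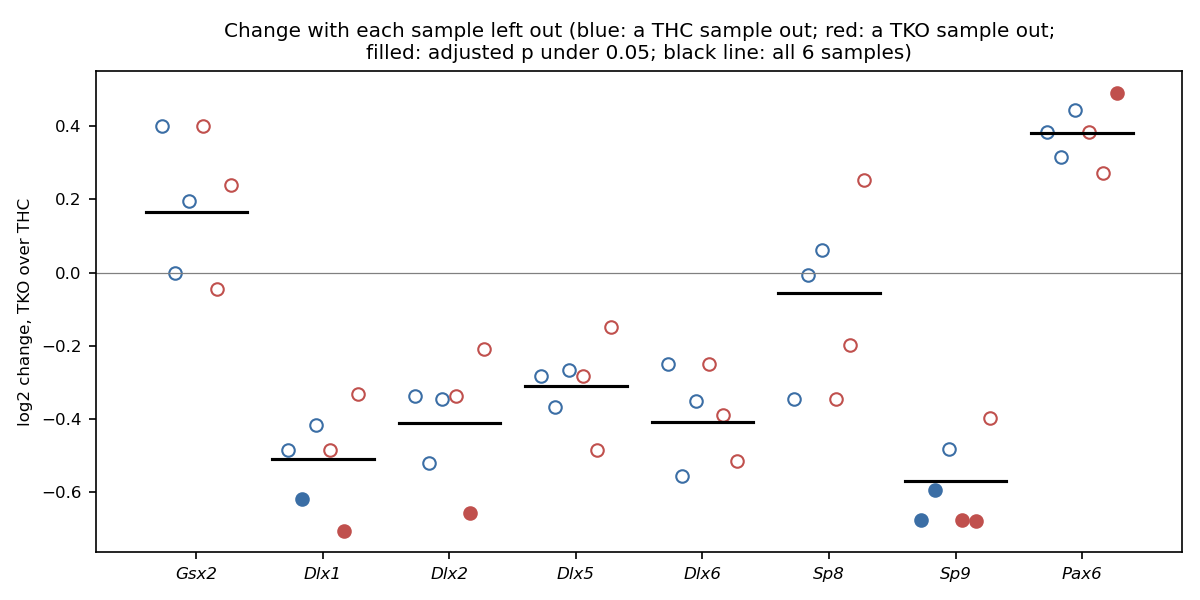
Log2 difference (TKO over THC, vertical axis) of each factor with 1 sample left out at a time; blue circles leave out a THC sample, red circles a TKO sample, filled circles have an adjusted p under 0.05 (limma), and black lines give the value with all 6 samples. The 4 Dlx genes and Sp9 stay below 0 and Pax6 above it, between 0.27 and 0.49, while Gsx2 and Sp8 cross 0.

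Markers of the neuroblast, in which most of these factors are known to be expressed, were lower in TKO, and in bulk samples fewer cells of a type and less RNA per cell cannot be told apart. Of 8 neuroblast marker genes 5 fell and none rose, with a median log2 difference of -0.63, and their summed normalized counts ranged from 22983 to 33069 over the THC samples, against 14742 to 20918 over those of TKO. Dcx, the microtubule-binding protein that marks migrating neuroblasts, was at 4971, 4294 and 5386 in THC and 2510.2, 3274 and 3048 in TKO. Each factor was therefore also expressed relative to that sum. Dlx1 was 20.3%, 17.6% and 17.8% of the sum in THC and 21.5%, 22.4% and 14.9% in TKO, a log2 difference of 0.06. Sp9 was 4.52%, 3.33% and 3.03% in THC and 5.51%, 3.32% and 2.49% in TKO, a difference of -0.00079. On this scale neither gene differed beyond the spread of the samples (exact permutation p of 0.8 and 1.0). Leaving out 1 sample moved the value for Sp9 between -0.31, without TKO 1, and 0.26, without TKO 3.

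Relative to the neuroblast sum, Pax6 and Gsx2 were higher in every TKO sample than in any THC sample. The sum itself was lower in TKO, and dividing by it raises the difference of every factor by the same amount. Unscaled, Gsx2 overlapped between genotypes (difference 0.16, adjusted p 0.59, limma). Pax6 was 7.17%, 6.20% and 5.76% of the sum in THC and 14.5%, 12.6% and 10.1% in TKO, a log2 difference of 0.95. Gsx2 was 1.68%, 1.32% and 1.33% in THC and 2.12%, 2.93% and 2.18% in TKO, a difference of 0.73. Both had an exact permutation p of 0.1, the smallest possible with 3 against 3, and 0.4 after adjustment over the 8 factors. The values for Sp8, Dlx5, Dlx6 and Dlx2 were 0.51, 0.26, 0.16 and 0.16, with overlap and exact permutation p from 0.3 to 0.6. With Dcx alone as the reference, the differences were 1.11 for Pax6, 0.90 for Gsx2, 0.22 for Dlx1 and 0.16 for Sp9.

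**Figure D3:**
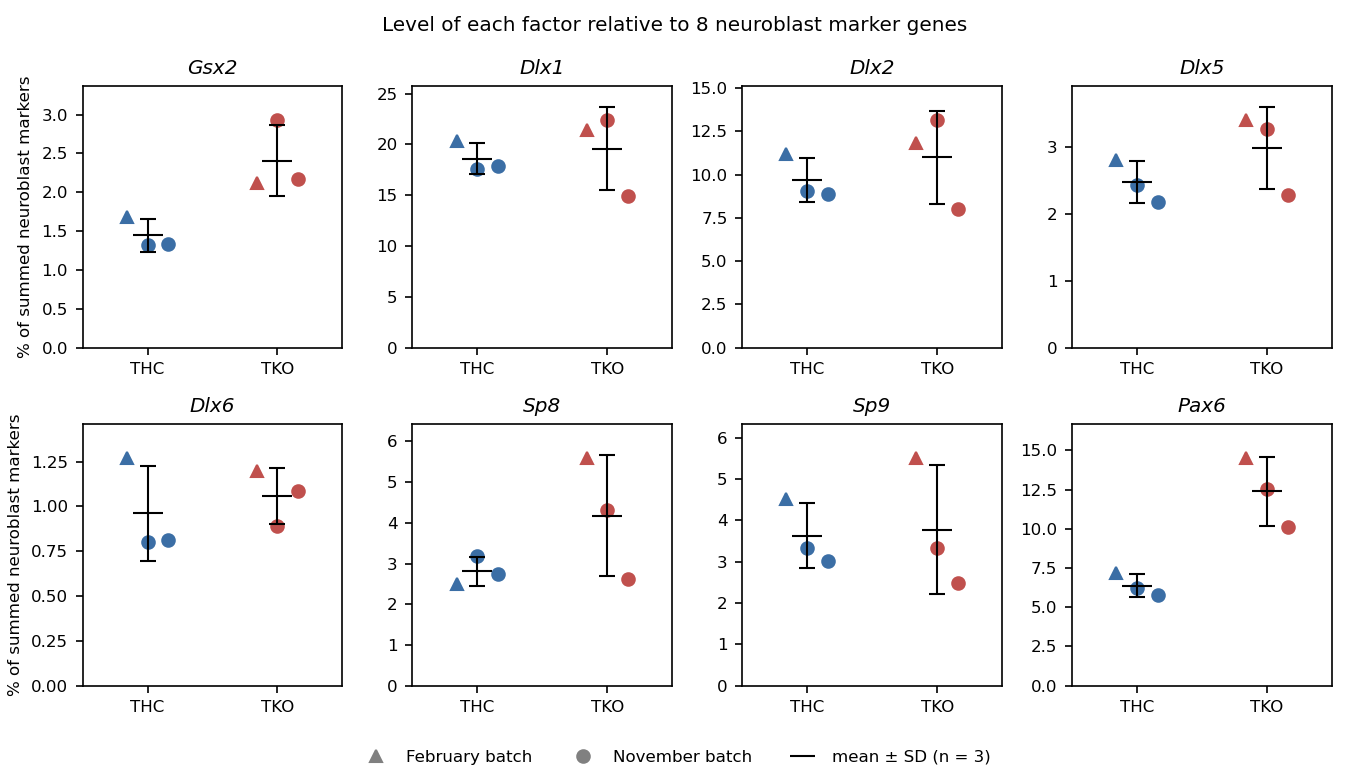
Each factor as a percentage of the summed normalized count of 8 neuroblast marker genes (vertical axes from 0) in the 3 THC and 3 TKO samples; triangles are February, circles November, and bars are mean ± SD of 3 samples. On this scale Pax6 and Gsx2 separate by genotype, and Dlx1, Dlx2, Dlx5, Dlx6, Sp8 and Sp9 overlap. The unscaled counts of Gsx2 overlap.

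Marker lists of other cell types were counted and summed as well, beside 13.6% of all genes lower and 14.3% higher. The sums of the progenitor, oligodendrocyte and endothelial lists did not overlap between genotypes, and those of the other lists did. Of 8 markers of activated stem cells and progenitors 6 rose and 1, Ccnd2, fell, with summed levels of 51124 to 69814 in THC and 69976 to 87644 in TKO. Striatal neurons, which also express some Dlx genes, were marked by 9 genes of which 1 fell, with sums of 920.2 to 1450 in THC and 787 to 1013 in TKO. Of 10 markers of quiescent stem cells and astrocytes, some of which express Pax6, 5 fell and 1, Gfap, rose. Gfap rose by 2.01 log2 units (adjusted p 4.7e-05, limma). The sums over the 10 were 156603 to 273511 in THC and 136461 to 180596 in TKO. Slc1a3, with the highest counts of the 10, had a difference of 0.0041. Of the oligodendrocyte markers 7 of 8 fell (88625 to 96842 against 16600 to 27141), and of the endothelial markers 7 of 8 fell (4768 to 11106 against 2191 to 3112). Microglial markers rose for 4 of 8 (317 to 2620.2 against 644 to 4370.4). The microglial sums of the February samples THC 1 and TKO 1 were above those of all November samples. Ependymal markers rose for 1 and fell for 2 of 8 (4688 to 14717 against 6463 to 8380). The ependymal median difference changed sign between batches, 0.89 in February and -0.73 in November. The 2 that fell, Rarres2 and Tmem212, had differences of -0.021 and 0.25 in February and -1.52 and -2.10 in November. In none of these lists were the defining markers Dcx, Nes, Gfap, Mbp, Cx3cr1, Cldn5, Foxj1 or Ppp1r1b at 0 in any sample. The part of the cell mixture in the differences of the 8 factors was not tested.

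Of 20 other transcription factors of the same lineage 4 fell, beside 13.6% of all genes lower, and none rose, beside 14.3% higher. The median difference over the 20 was 0.01. Those that fell are used in neuroblasts and young neurons. Sox4 and Sox11, which activate neuronal genes, fell by 0.65 (SE 0.13, adjusted p 0.0036) and by 0.48 (SE 0.16, adjusted p 0.038, limma). Meis2 and Pbx3, homeodomain cofactors of which Meis2 acts with Pax6 and Dlx2 in olfactory interneurons, fell by 0.42 (SE 0.14, adjusted p 0.042) and by 0.54 (SE 0.14, adjusted p 0.011, limma). Sox4 was at 4014, 3397 and 4206 normalized counts in THC and 2514, 2680.3 and 2199 in TKO, and its call held with each sample left out in turn. The other 3 calls did not: that of Sox11 was lost without any sample but THC 2 (adjusted p 0.079 to 0.21), that of Meis2 without THC 1, THC 3, TKO 1 or TKO 2 (0.093 to 0.31), and that of Pbx3 without THC 3 or TKO 2 (0.051 each). The remaining 16, among them Gsx1 and Etv1, were not called. One of these, Zic2, passed the filter on low values through its TKO samples alone (adjusted p 0.21, limma). Without Zic2, 4 of 19 fell. Six3 and Nr2f1, chosen after their values were seen, had positive differences of 0.50 and 0.58, with adjusted p of 0.087 and 0.064 (limma).

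**Figure D4:**
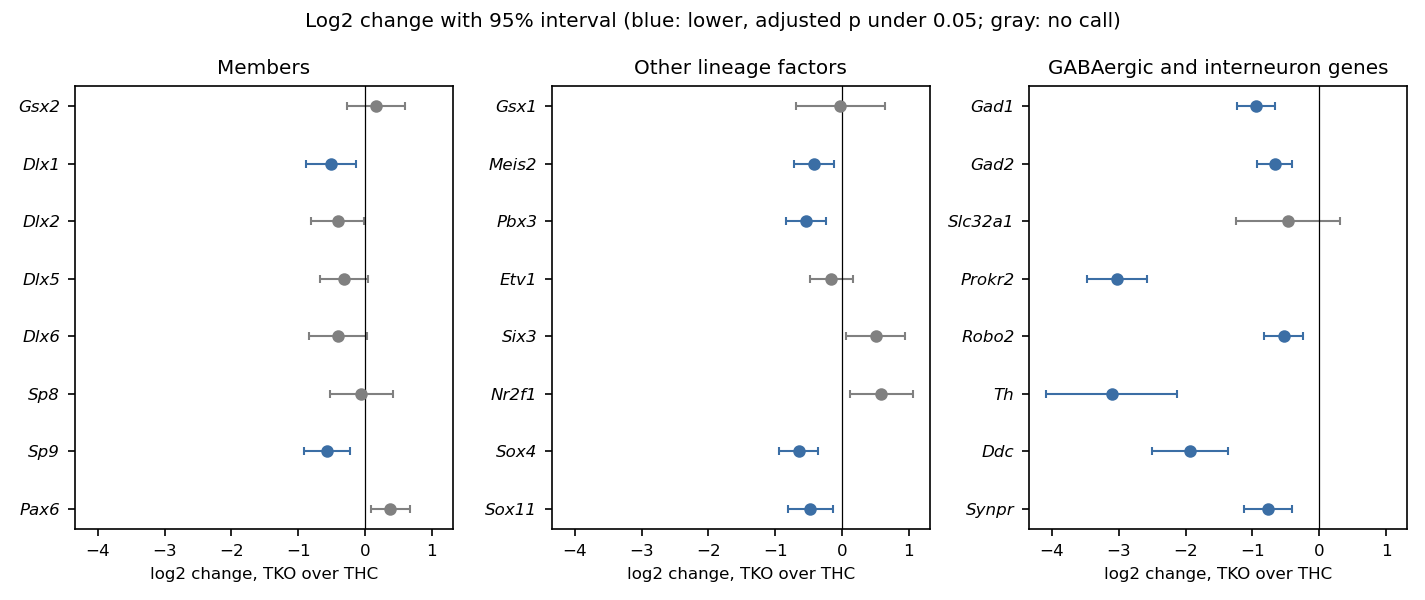
Log2 difference (TKO over THC, horizontal axes) with its 95% interval for the 8 factors, 8 other factors of the lineage and 8 GABAergic and interneuron genes, those named in the text; blue marks an adjusted p under 0.05 and gray no call. The 8 factors lie between -0.57 and 0.38, and the interneuron gene Prokr2 at -3.03.

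The enzymes, receptors and calcium-binding proteins of GABAergic interneurons, many of them downstream of these factors in the lineage, were lower in TKO for 11 of 12 genes. The share over all genes was 13.6%, and the median over the 12 was -0.96. Of the 12, the count called was 8 or 9 with 1 sample left out and 8 in November alone. The gene that was not called, Slc32a1, named after its value was seen, had a difference of -0.46 (adjusted p 0.38, limma) at a low level of 24.1 to 39.7 counts. Prokr2, the prokineticin receptor that neuroblasts use to enter the olfactory bulb, had 799, 1722 and 2147 normalized counts in THC and 143, 231 and 161 in TKO, and fell by 3.03 (SE 0.20, adjusted p 2.2e-06, limma). Th and Ddc, the enzymes of dopamine synthesis, were both low in TKO: Th ranged over 4.30 to 6.83 there against 39.4 to 67.1 in THC, and Ddc over 53.7 to 76.3 against 203 to 326. Gad1, which makes GABA and is a known Dlx target, had 2682, 3601 and 3505 in THC and 1703, 1625 and 1713 in TKO, and fell by 0.94 (SE 0.13, adjusted p 0.00020, limma). Its partner Gad2 fell by 0.67 (SE 0.12, adjusted p 0.0014, limma). Synpr, a synaptic vesicle protein, fell by 0.77, and the guidance receptor Robo2 by 0.53. The calls of Prokr2, Ddc, Gad1, Gad2 and Synpr held with each sample left out in turn, and that of Robo2 did not (adjusted p 0.079 without THC 1 or TKO 1). Th passed the filter on low values through its THC samples alone, so its samples had to separate by genotype once tested. Th was not tested with a THC sample left out. Without Th, 10 of 11 genes were lower. None of the 8 factors fell as far as Gad1 in this fit.

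The glutamatergic lineage was listed as a counterpart, since Dlx and Gsx2 activity sets it apart from the GABAergic one. Of its 10 genes 2 (Neurog1 and Slc17a7) were too low to test, and of the other 8 only Slc17a6, the vesicular glutamate transporter, was called. It had 104, 93.5 and 158 normalized counts in THC and 40.0, 64.5 and 72.4 in TKO, and fell by 1.0 (SE 0.29, adjusted p 0.024, limma). Its call was lost without any sample but THC 2 (adjusted p 0.051 to 0.11). The median over the 8 was -0.19.

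Of the 17 remaining genes of the Dlx, Sp and Pax families 9 were too low to test and 3 of the other 8 were higher in TKO. Sp1, a general activator of GC-rich promoters, had 629, 678 and 673 normalized counts in THC and 977, 1237 and 1246 in TKO, and rose by 0.80 (SE 0.13, adjusted p 0.00058, limma). Sp3, which binds the same sites, rose by 0.53 (SE 0.13, adjusted p 0.011, limma), a call lost without THC 1, TKO 1 or TKO 2 (adjusted p 0.064, 0.061 and 0.058). Pax4, a factor of pancreatic islet development, was listed at 1.0, 4.72 and 0 in THC and 49.8, 31.2 and 38.6 in TKO. It passed the filter on low values through its TKO samples alone, so its samples had to separate by genotype once tested. Without it, 2 of 7 genes were higher. Dlx4, the only other Dlx gene tested, had a difference of -0.33 (adjusted p 0.57, limma).

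For each factor, the genes whose centred values over the 6 samples were nearest were looked up among 11402 genes with a mean of at least 100, none of them a member of the group. Elk1 was nearest to both Dlx1 (root-mean-square difference 0.053) and Dlx2 (0.090), followed by Tle1 for Dlx1 (0.070) and Sh3kbp1 for Dlx2 (0.11). Sp9 was nearest to Mgat5b and Shisa2 (0.074 each), and Sp8 to Pycr1 (0.098) and Thtpa (0.10). Pax6 was nearest to Aida (0.032) and Ncl (0.039), and Gsx2 to Ndufaf5 (0.086) and Sec61b (0.093). Dlx5 was nearest to Snx6 (0.053) and Slc25a51 (0.058), and Dlx6 to Usp45 (0.061) and Bmyc (0.070). With 6 samples, many genes have near-identical patterns, and these likenesses are descriptions.

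The upstream windows of 6 factors, 9 windows in all, were also searched on both strands for short motifs. The E2F letters TTTCCCGC, TTTCGCGC, TTTGGCGC and TTTGCCGC were in none of the 9 windows and in 1.86% of all windows. The TTTGAA letters were in 2 windows, those of Sp8 and Sp9 shown above. GGGCGG, the GC box bound by Sp factors, was in the windows of Gsx2, Dlx2, Sp8 and Sp9, beside 32.7% of all windows. CCAAT was in 5 of the 9 windows, of Dlx2, Sp8, Sp9 and Pax6, beside 33.8%, and the homeodomain core TAATTA in 1 window of Sp8, beside 4.84%. The E-box CAGCTG was in none, beside 13.0%.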

How the data were processed

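Per the labels' protocols, RNA was extracted with PicoPure (at least 35 ng, quality number at least 8.0), converted with SMART-Seq v4 and made into Nextera XT libraries, a chemistry without strand. The submitters' processing notes name HISAT2, featureCounts (Subread), DESeq2 and GRCm38; the sources used here give no versions, annotation, filters or multi-mapping rules. The authors' deposited table holds a signal per sample, the count scaled by 1 factor, and, per the file headers, their own log2 fold change, standard error, p-value and adjusted p-value. Each value was a whole multiple of its column's step within 0.001 read (100% of values), which gave the depth.

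Genes with at least 10 in 3 samples were fitted with limma 3.58.1 (R 4.3.3), log2(value + 1), intensity trend, batch plus genotype (3 residual and 8.9 prior degrees of freedom), after a check on simulated data. Ratios used exact permutation tests (scipy 1.17.1). Intervals of differences are 95% limits of that fit. The series calls the samples biological replicates. Coordinates and exon lengths are from GENCODE M21 (GRCm38), and upstream sequence from RefSeq (GRCm38.p6), whose table matched 6 of the 8 factors. Named are the 8 factors, up to 8 called genes per list, and 2 nearest genes per factor; a few list genes are not reported here. The factors, the 5 gene lists (63 genes) and the 8 marker lists were chosen with earlier results of these data known. The design foresaw count tests as the main test only for raw counts; the table holds normalized values, so limma was used. Alternatives were other pseudocounts, filters, scalings and batch terms, a replicate block, November alone, samples left out and the authors' values.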

Additional observations from a re-analysis of the deposited data

How the results depend on the processing

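The count of 2 factors called was 1 with no filter, without the batch term, with the replicate block, in the November samples alone and under upper quartile scaling, and 0 to 3 with 1 sample left out. Dlx1 was then no longer called, at differences of -0.51 with no filter, without the batch term and with the replicate block, -0.48 in November and -0.51 under upper quartile scaling. Its range with 1 sample left out was -0.70 to -0.33, that of Sp9 -0.68 to -0.40, and that of Dlx2 -0.66 to -0.21. Pax6 was called at 0.38 with a filter of 50, at 0.37 under scaling to equal totals and at 0.39 in the authors' deposited table, and ranged from 0.27 to 0.49 with 1 sample left out; with the replicate block its adjusted p was 0.099 (limma). Gsx2 ranged from -0.045 to 0.40 and Sp8 from -0.35 to 0.25, each with both signs. Of the 63 list genes 20 were called, beside 27.9% of all genes tested. The 63 include 2 glutamatergic and 9 Dlx, Sp and Pax genes too low to test. The count was 12 in November alone and 13 to 18 with 1 sample left out. Over all genes the count of 4814 was 3850 in November alone and 3510 to 4246 with 1 sample left out. The causes were not tested; the last 2 settings use fewer samples. The calls of Sox4, Gad1, Gad2, Prokr2, Ddc, Synpr and Sp1 kept their side under all 16 alternatives.

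Same-numbered samples of the genotypes had deviations that correlated over genes at 0.23, -0.11 and 0.14. Differently numbered samples ranged from -0.28 to 0.18. These few values cannot decide whether the numbers pair the samples, and replicate 1 of each genotype also shares the February batch. The replicate block gave 4069 genes called in place of 4814.

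The TKO minus THC difference of the log2 ratio of Dlx6 to Dlx5 was 0.032 in November alone. It was -0.30 to 0.10 with 1 sample left out. Relative to neuroblast markers, the log2 difference of Dlx1 ranged from -0.050 to 0.24 with 1 sample left out. That of Sp9 ranged from -0.31 to 0.26, and it was 0.0021 with a pseudocount of 5 and 0.16 against Dcx alone. The smallest exact permutation p among these ratios with all samples was 0.8.

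The scalings to equal totals and to the upper quartile were added after seeing the data. The planned count tests and TMM scaling were to use whole reads recovered from the table. They were not run, because the steps of THC 1 and THC 3 (1.002 and 1.010) lie so near 1 that the recovery could not be checked there to the standard set for such a test.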
